A study of Mus musculus with 21 samples.

Results

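Interleukin-1 and interleukin-18 are cytokines of one family, and the 10 genes described here are their 3 ligands, their 3 antagonists or decoys and their 4 signalling receptor chains. They were taken by name from the 27179 genes listed in the count tables, and all 10 were found. The ligands are Il1a, Il1b and Il18, the antagonists and decoys are Il1rn, Il1r2 and Il18bp, and the receptor chains are Il1r1, Il1rap, Il18r1 and Il18rap. The study sequenced mRNA of podocyte fractions, one library per mouse, from wildtype male C57BL/6J mice. The 6 young mice were 4 months old and untreated. The 7 middle-aged saline mice and the 8 middle-aged MCC950 mice were 19.5 months old, and both groups were injected for 6 weeks from 18 months of age. MCC950, an inhibitor of the NLRP3 inflammasome, was given intraperitoneally at 10 mg/kg 2 times a week, and saline was its vehicle. Since young mice had no injection, age and saline injection cannot be told apart. The fractions were collected from digested kidney cortex with magnetic beads and antibodies to nephrin, a surface protein of podocytes, so that RNA of any other cell held back by the beads was sequenced too.

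Interleukin-1 beta and interleukin-18 are made as inactive precursors that caspase-1 cuts after an inflammasome such as NLRP3 has formed, whereas the precursor of interleukin-1 alpha is active. Both forms of interleukin-1 bind the receptor encoded by Il1r1, which then recruits the accessory chain encoded by Il1rap and signals through MyD88 and IRAK kinases to NF-kappaB. Il1rn encodes an antagonist that occupies this receptor, Il1r2 a decoy receptor without a signalling domain, and Il18bp a secreted protein that traps interleukin-18. In the kidney these cytokines are known from inflammation and injury, with macrophages as a main source of interleukin-1 beta. Transcript levels do not show cleavage or release of the proteins.

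Young libraries held 27375870 to 36827823 counts, saline libraries 45772937 to 84876399 and MCC950 libraries 35440472 to 58247271, so every saline library was deeper than every young one. Mitochondrial genes took 51.5% to 80.4% of the counts in young, 63.0% to 79.2% in saline and 49.9% to 63.7% in MCC950 libraries, so that the share was lower with MCC950 than with saline with little overlap. Its part in the differences with MCC950 was not tested beyond leaving these genes out of the fit, after which 4 of the 10 genes passed with age and 1 with MCC950, as with them in. All 14 podocyte markers were detected in each group, and their summed level fell from 806 to 1625 CPM (read counts scaled to a common library size) in young to 352 to 585 in saline libraries. It lay between 420 and 640 CPM with MCC950. Of the 14 podocyte markers, 13 were lower in saline than in young libraries, and 3 of 14 macrophage and myeloid markers were higher, at a Benjamini-Hochberg adjusted p under 0.05 in edgeR. Of all genes tested, 12.4% were lower and 12.2% higher in this comparison. All 14 macrophage and myeloid markers had positive differences, with a median log2 fold change of 0.76. The summed macrophage and myeloid level ranged from 484 to 2377 CPM in young, from 1704 to 4103 in saline and from 963 to 3986 in MCC950 libraries. With MCC950, 8 of 10 proximal tubule markers were higher than with saline, against 11.9% of all genes tested. The sum of the proximal tubule markers ranged from 2617 to 5820 CPM with MCC950 and from 1346 to 3503 with saline.

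Of the 10 genes, 4 changed with age: Il1a, Il18 and Il1rn rose and Il1r1 fell in saline against young libraries. For comparison, 24.6% of the 16377 genes tested passed this threshold with age, 12.2% higher and 12.4% lower. With MCC950 against saline only Il1r1 passed, as a further fall, beside 16.8% of all genes tested, 11.9% higher and 4.86% lower. Fold changes are given as log2 of the ratio between groups with a standard error (SE) from edgeR, and adjusted p-values are from its quasi-likelihood test over all genes tested. At an unadjusted p under 0.05, 7 of the 10 genes passed with age and 2 with MCC950, against 36.9% and 31.6% of all genes tested. With a change of over 2-fold required as well, these were 3 genes against 6.96% with age and 0 genes against 2.71% with MCC950. The median log2 fold change of all genes tested was 0.02 with age and 0.00 with MCC950. The comparisons with age and with MCC950 use the same 7 saline libraries, so they are not independent of each other. Levels per library are CPM scaled by edgeR's TMM factors. All 10 genes passed the filter on low counts.

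**Figure D1:**
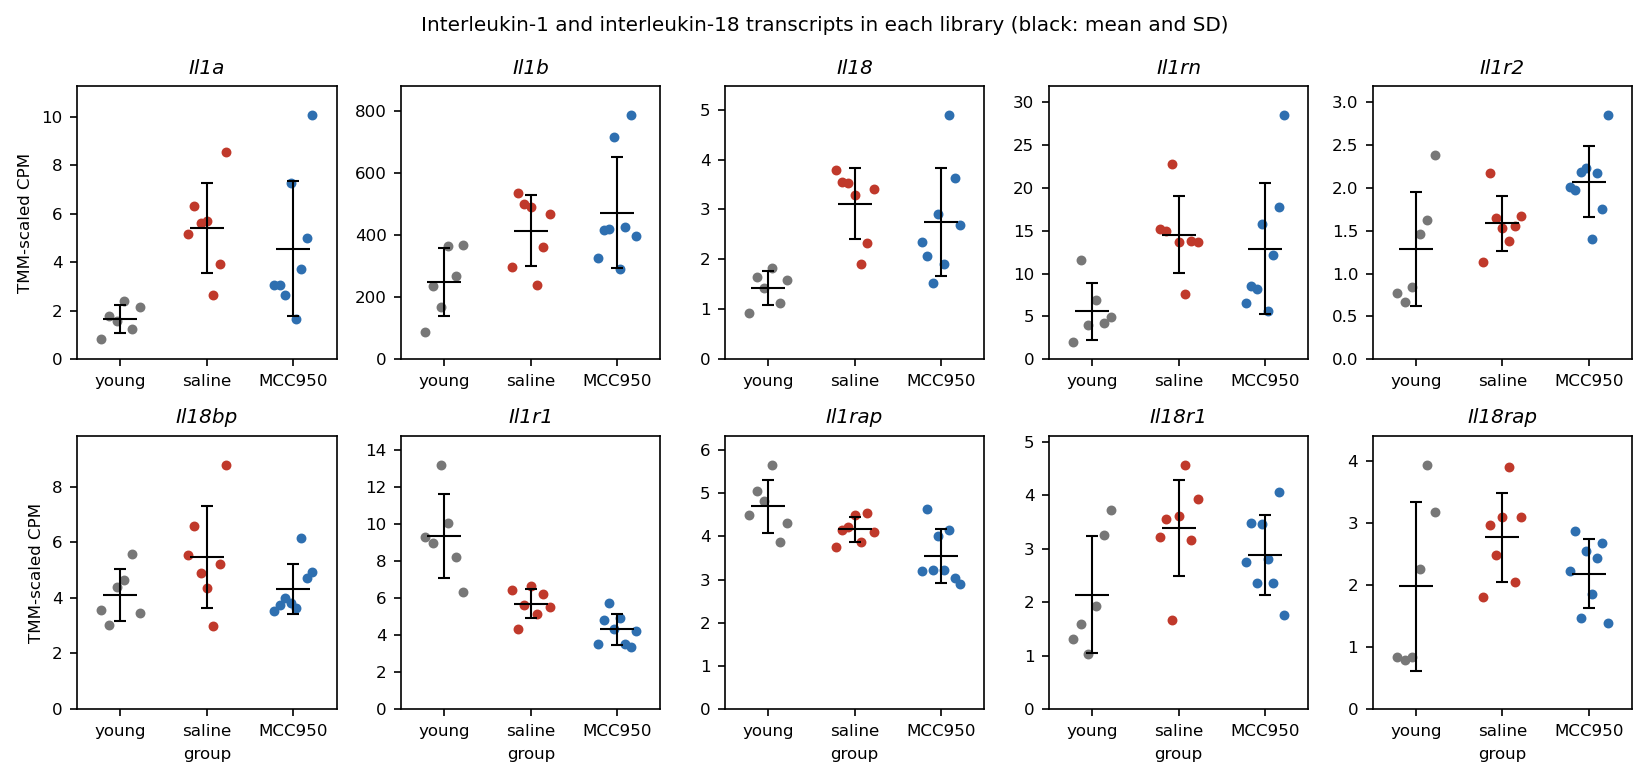
Level of each of the 10 genes in every library (y axis, TMM-scaled CPM, each panel from 0; x axis, group), with 6 young, 7 saline and 8 MCC950 libraries as points and the mean and SD in black. The saline points of Il1a and Il18 lie above every young point, and the groups overlap in the other 8 genes.

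Il1a encodes interleukin-1 alpha, which acts from the cell surface or after release from damaged cells. Its levels were 0.846 (lowest), 1.69 (median) and 2.41 (highest) CPM in young libraries and 2.64, 5.63 and 8.54 CPM in saline libraries. All 7 saline libraries were above all 6 young libraries. The mean rose from 1.67 ± 0.580 (SD, n = 6) to 5.42 ± 1.86 CPM (SD, n = 7), a log2 fold change of 1.70 (SE 0.37, adjusted p = 0.00226, edgeR). The counts behind these levels were 22 to 66 per young library and 217 to 451 per saline library. A separation of this kind, without overlap between the groups, was seen in 9.37% of all genes tested, and in 4.51% with the saline libraries higher.

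Il18 encodes the precursor of interleukin-18, which induces interferon gamma in T and NK cells. Young libraries held 0.921, 1.505 and 1.82 CPM (lowest, median and highest) and saline libraries 1.90, 3.41 and 3.78 CPM. Here too no saline library fell within the young range, although the lowest saline library lay just above the highest young one. The log2 fold change was 1.13 (SE 0.25, adjusted p = 0.00236, edgeR), from 1.42 ± 0.342 (SD, n = 6) to 3.11 ± 0.711 CPM (SD, n = 7). Counts were low, 20 to 50 per young library.

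Il1b encodes the precursor of interleukin-1 beta and had the highest level per length of the 10 transcripts. It reached 88.6, 252 and 369 CPM (lowest, median and highest) in young libraries and 239, 468 and 536 CPM in saline libraries. Only 4 of the 7 saline libraries were above the highest young one. The log2 fold change of 0.73 (SE 0.29) did not pass the test (adjusted p = 0.0719, edgeR), and DESeq2 on the same counts gave 0.72 with an adjusted p of 0.0498. It also passed in edgeR when young replicate 4, young replicate 6 or saline replicate 5 was left out, with adjusted p-values of 0.0485, 0.0398 and 0.0458.

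Il1rn, the receptor antagonist, rose with age as well. Its levels were 2.04, 4.59 and 11.6 CPM (lowest, median and highest) in young and 7.59, 13.8 and 22.9 CPM in saline libraries. Of the 7 saline libraries, 6 were above every young library. The log2 fold change was 1.37 (SE 0.38, adjusted p = 0.0120, edgeR). The decoys changed less: Il1r2 went from 1.29 ± 0.664 (SD, n = 6) to 1.58 ± 0.321 CPM (SD, n = 7), a log2 difference of 0.32 (SE 0.25, adjusted p = 0.369, edgeR). Il18bp went from 4.10 ± 0.933 (SD, n = 6) to 5.48 ± 1.83 CPM (SD, n = 7), a log2 difference of 0.42 (SE 0.20, adjusted p = 0.131, edgeR). Neither passed the test with all libraries, and Il18bp passed without saline replicate 5 (log2 0.53, adjusted p = 0.0401, edgeR). The saline range of Il18bp, 2.98 to 8.77 CPM, held the whole young range of 3.02 to 5.56 CPM.

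The receptor chain that binds interleukin-1, Il1r1, went the other way. Its levels were 6.35, 9.15 and 13.2 CPM (lowest, median and highest) in young libraries and 4.36, 5.63 and 6.65 CPM in saline libraries, and 5 of 7 saline libraries lay below every young one. Il1r1 fell by 0.72 on the log2 scale (SE 0.15, adjusted p = 0.00157, edgeR), from 9.37 ± 2.27 (SD, n = 6) to 5.71 ± 0.806 CPM (SD, n = 7). The accessory chain Il1rap had 4.70 ± 0.617 CPM in young (SD, n = 6) and 4.16 ± 0.291 CPM in saline libraries (SD, n = 7), a log2 difference of -0.18 (SE 0.11, adjusted p = 0.268, edgeR). The interleukin-18 receptor chains Il18r1 and Il18rap had log2 differences of 0.69 (SE 0.27, adjusted p = 0.0687, edgeR) and 0.53 (SE 0.33, adjusted p = 0.259, edgeR). Both spread widely among young mice, where Il18rap ran from 0.796 to 3.93 CPM and Il18r1 from 1.03 to 3.72 CPM. The call for Il18r1 depended on single libraries: without young replicate 5, young replicate 6 or saline replicate 3 its adjusted p was 0.0323, 0.0139 and 0.0296 (edgeR).

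**Figure D2:**
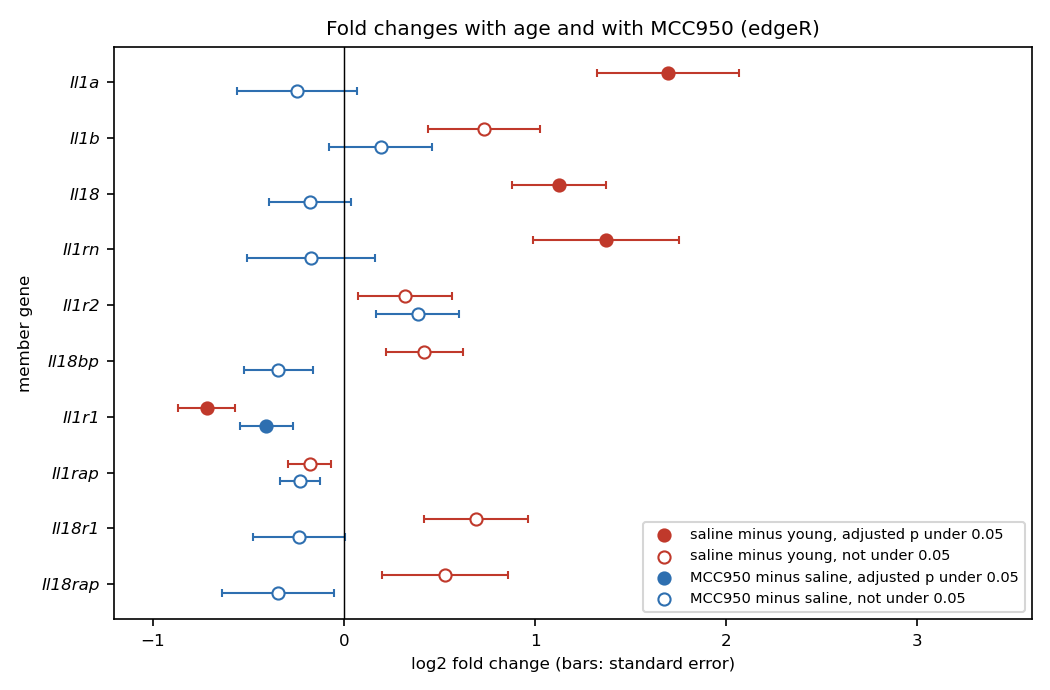
Log2 fold change of each of the 10 genes (x axis, with its standard error as bars) for saline minus young in red and MCC950 minus saline in blue, with filled points at an edgeR adjusted p under 0.05. Il1a at 1.70, Il1rn at 1.37 and Il18 at 1.13 are filled to the right with age, and Il1r1 is filled to the left in both comparisons.

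Per kilobase of exon the order of the genes changed with age. In young libraries Il1b had 131 ± 57.6 CPM per kilobase (SD, n = 6), followed by Il1r1 with 1.47 ± 0.356, Il18 with 1.38 ± 0.331 and Il18bp with 1.36 ± 0.308, which did not differ beyond their spread. Il1rn, Il1a and Il1r2 followed with 1.01 ± 0.598, 0.847 ± 0.294 and 0.676 ± 0.348 CPM per kilobase, and Il18r1, Il1rap and Il18rap came last with 0.445 ± 0.227, 0.413 ± 0.0543 and 0.292 ± 0.202. In saline libraries Il1b stood at 217 ± 60.1 CPM per kilobase (SD, n = 7), and Il18 with 3.02 ± 0.689, Il1a with 2.74 ± 0.943 and Il1rn with 2.63 ± 0.809 came next and overlapped. Il1r1 had moved below these and below Il18bp, to 0.898 ± 0.127 CPM per kilobase, beside Il1r2 with 0.830 ± 0.168 and Il18r1 with 0.703 ± 0.185. Il1b thus exceeded each of the other 9 transcripts per length in every group, including MCC950, where it reached 248 ± 94.2 CPM per kilobase (SD, n = 8). Exon lengths are unions over the GENCODE transcripts of a gene and may exceed the transcript in use.

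The 10 genes lie on 5 chromosomes of the mouse genome (GRCm38). The receptor genes Il1r2, Il1r1, Il18r1 and Il18rap stand on the plus strand of chromosome 1, at chr1:40084692-40125230, chr1:40222480-40316201, chr1:40465552-40500854 and chr1:40515362-40551707. Although neighbours, Il1r1 fell with age while the other 3 had positive differences that did not pass the test. Il1a (chr2:129299609-129310186, minus strand) and Il1b (chr2:129364569-129371164, minus strand) are also close to each other, and Il1rn lies elsewhere on that chromosome (chr2:24336860-24351491, plus strand). Il18 is at chr9:50554700-50581841 (plus strand), Il18bp at chr7:102015074-102018232 (minus strand) and Il1rap at chr16:26581509-26730128 (plus strand). Il1b, Il1a, Il1rap and Il18bp share exon bases with another counted gene. The overlap was 25 bases for Il1b and the antisense gene Il1bos, 222 bases for Il1a and Gm14023, 552 bases for Il1rap and Gm20319 and 80 bases for Il18bp and Numa1. The strand setting of the read counting is not given in the sources used here, so reads on these bases cannot be assigned to one partner. Il1bos was counted at 0.846 to 6.12 CPM over all libraries and Gm20319 at 0 to 6 counts, whereas Numa1 had 64.6 to 80.7 CPM.

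The promoters of the 3 ligands and of Il1rn are shown because these genes had the largest differences with age among the 10. Each is the run of 250 bases before a RefSeq transcript start (GRCm38.p6), 5′ to 3′ on the strand of the gene, with capitals for matches to the TATA box (TATAAA) or the AP-1 motif (TGANTCA), searched on both strands.
Il1a, chr2:129309973-129310222, minus strand: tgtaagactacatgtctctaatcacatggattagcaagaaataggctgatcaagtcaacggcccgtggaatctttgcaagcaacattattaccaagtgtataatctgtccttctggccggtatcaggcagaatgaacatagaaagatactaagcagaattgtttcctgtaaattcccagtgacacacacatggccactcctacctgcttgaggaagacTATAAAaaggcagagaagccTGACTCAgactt
Il1b, chr2:129371140-129371389, minus strand: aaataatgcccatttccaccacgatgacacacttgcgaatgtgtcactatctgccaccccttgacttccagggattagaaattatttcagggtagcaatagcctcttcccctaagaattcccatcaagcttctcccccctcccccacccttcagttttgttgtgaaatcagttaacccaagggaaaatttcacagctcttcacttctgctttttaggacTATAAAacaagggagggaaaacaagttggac
Il18, chr9:50554450-50554699, plus strand: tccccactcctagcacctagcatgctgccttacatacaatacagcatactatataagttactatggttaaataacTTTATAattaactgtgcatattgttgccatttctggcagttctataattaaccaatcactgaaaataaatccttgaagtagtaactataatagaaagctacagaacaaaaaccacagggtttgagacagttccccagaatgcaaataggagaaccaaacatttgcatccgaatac
Il1rn, chr2:24336610-24336859, plus strand: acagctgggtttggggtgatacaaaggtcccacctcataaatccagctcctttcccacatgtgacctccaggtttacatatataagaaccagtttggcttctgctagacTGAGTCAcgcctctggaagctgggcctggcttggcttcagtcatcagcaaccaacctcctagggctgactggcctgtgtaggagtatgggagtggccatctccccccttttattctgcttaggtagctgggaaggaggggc

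Il1a has a TATA box match 32 to 27 bases before its start and an AP-1 match 12 to 6 bases before it, which do not overlap. Il1b has a TATA box match 31 to 26 bases before its start. The match in Il18 reads TTTATA, on the reverse strand, 175 to 170 bases before the start, and Il1rn has an AP-1 match 141 to 135 bases before one of its 3 listed starts. Over the 15 promoters listed for the 10 genes, 3 held a TATA box match against 12.4% of 32851 promoters of the table, and 2 held an AP-1 match against 6.75%. The NF-kappaB motif (GGGAN followed at once by TTNCC) matched in 0 of 15 and in 0.980% of all. A match gives letters only and says nothing of binding in these cells.

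With MCC950 the ligands overlapped widely with saline, and in 0 of the 10 genes were the libraries of both groups fully apart, against 1.74% of all genes tested. Il1a had 1.68, 3.39 and 10.1 CPM (lowest, median and highest), a log2 difference of -0.25 from saline (SE 0.31, adjusted p = 0.632, edgeR). Il18 had 1.53, 2.52 and 4.89 CPM, a log2 difference of -0.18 (SE 0.21, adjusted p = 0.615, edgeR). Il1b had 289, 418 and 786 CPM, a log2 difference of 0.19 (SE 0.27, adjusted p = 0.665, edgeR). In each of the 3 genes the highest MCC950 library exceeded the highest saline library, and for Il1a and Il18 the lowest MCC950 library was below the lowest saline one. These values do not show that treated and control mice were alike, since one SE of Il1a alone is 0.31 on the log2 scale.

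Among antagonists and decoys Il1rn had 5.61, 10.4 and 28.5 CPM (lowest, median and highest) with MCC950, a log2 difference of -0.17 (SE 0.34, adjusted p = 0.766, edgeR). The highest value belonged to MCC950 replicate 8. Il1r2 had 1.41, 2.09 and 2.85 CPM, with 4 of 8 libraries above every saline library, and its log2 difference of 0.39 (SE 0.22) did not pass (adjusted p = 0.234, edgeR). Il18bp had 3.52, 3.91 and 6.15 CPM, within the saline range, with a log2 difference of -0.34 (SE 0.18, adjusted p = 0.201, edgeR).

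All 4 receptor chains had negative differences with MCC950, and 1 passed the test. Il1r1 had 3.36, 4.28 and 5.77 CPM (lowest, median and highest), and 5 of 8 libraries were below every saline library. It fell by 0.41 on the log2 scale (SE 0.14, adjusted p = 0.0485, edgeR), close to the threshold of 0.05. This call was lost without any one of 13 libraries (young replicate 1, saline replicates 1, 3, 4, 5, 6 and 7, and MCC950 replicates 1, 4, 5, 6, 7 and 8), with adjusted p-values up to 0.0950, and it was lost with no filter on low counts (adjusted p = 0.0650). In DESeq2 the adjusted p was 0.0205. Il1rap had 2.89, 3.23 and 4.64 CPM, with 5 of 8 libraries below every saline library and a log2 difference of -0.23 (SE 0.10, adjusted p = 0.135, edgeR). Without MCC950 replicate 2, the highest of that group, the adjusted p of Il1rap was 0.0441. Il18r1 and Il18rap had log2 differences of -0.23 (SE 0.24, adjusted p = 0.538, edgeR) and -0.34 (SE 0.29, adjusted p = 0.452, edgeR).

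The balance between members was followed as the log2 ratio of their counts within a library, which does not depend on library size. With 5 ratios in 2 comparisons, 10 exact two-sided permutation tests were made, and the Benjamini-Hochberg adjustment ran over these. The ratio of Il1rap to Il1r1 rose with age from -0.97 ± 0.30 (SD, n = 6) to -0.45 ± 0.21 (SD, n = 7), with 5 of 7 saline libraries above every young one (exact permutation p = 0.0035, adjusted p = 0.0295). Leaving out saline replicate 5 or saline replicate 6 raised the adjusted p of this exact permutation test to 0.0566. The ratio of Il1r2 to Il1r1, decoy over signalling receptor, was 0.80 higher with MCC950 than with saline on the log2 scale, with 5 of 8 libraries above every saline one (exact permutation p = 0.00591, adjusted p = 0.0295). That call was lost without any one of saline replicates 1, 4, 5 and 6 or MCC950 replicates 1, 6 and 7, with adjusted p-values of 0.0524 to 0.0633. With age the same ratio differed by 1.10, which missed the adjusted threshold (exact permutation p = 0.0303, adjusted p = 0.0758), and passed without young replicate 6 (adjusted p = 0.0197).

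The antagonist ratios did not pass after adjustment. Il1rn to Il1b was 0.68 higher with age on the log2 scale (exact permutation p = 0.0408, adjusted p = 0.0816), and differed by -0.48 with MCC950 (exact permutation p = 0.105, adjusted p = 0.175). In the MCC950 group 6 of 8 libraries were below every saline library while replicate 8 was above all of them, and without replicate 8 the difference was -0.69 (exact permutation test, adjusted p = 0.0175). Without young replicate 2 the difference with age was 0.91 (exact permutation test, adjusted p = 0.0253). Il18bp to Il18 differed by -0.74 with age (exact permutation p = 0.0186, adjusted p = 0.0622). It passed without young replicate 2 or saline replicate 7 (exact permutation test, adjusted p = 0.0316 and 0.0361), or at equal depth (adjusted p = 0.0272). MCC950 replicate 8 is not in this comparison. Without it the exact permutation p stayed at 0.0186, and only the adjustment over all ratio tests moved, to an adjusted p of 0.0466. With MCC950 the ratio of Il18bp to Il18 differed by -0.07 (exact permutation p = 0.708). For the paired receptor chains the difference was within the spread of the libraries: Il18rap to Il18r1 differed by -0.00 with age (exact permutation p = 0.986) and by -0.12 with MCC950 (exact permutation p = 0.529).

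**Figure D3:**
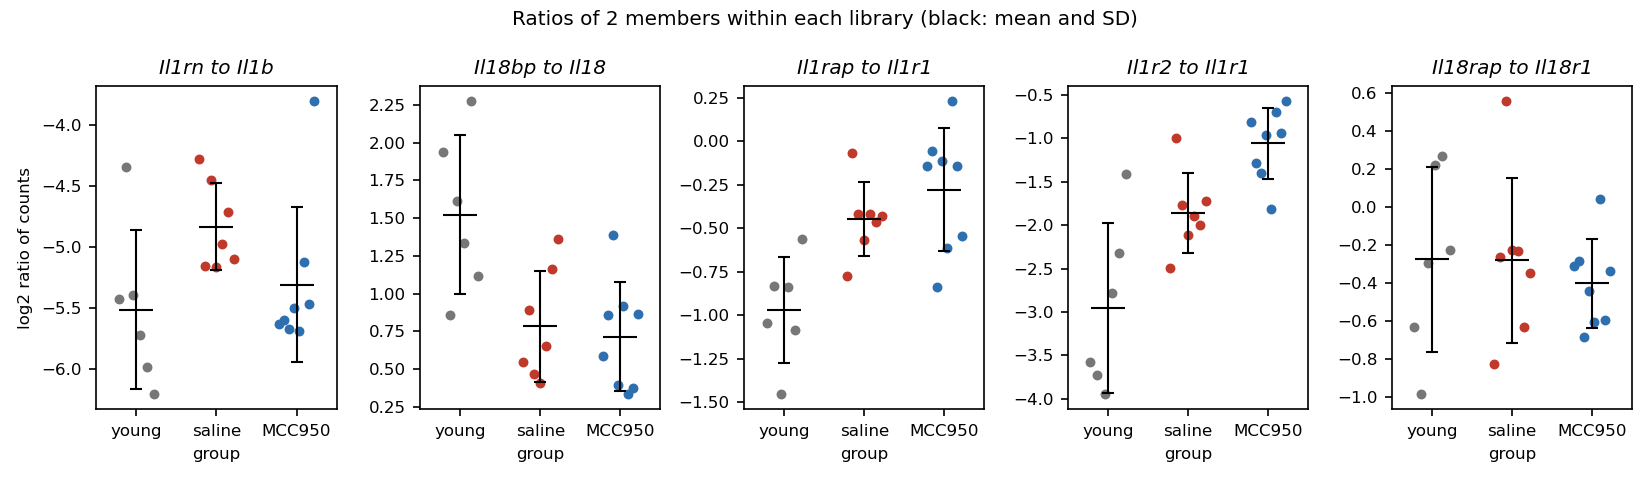
Log2 ratio of the counts of 2 genes within each library (y axis; x axis, group), with 6 young, 7 saline and 8 MCC950 libraries as points and the mean and SD in black. Il1rap to Il1r1 is higher in saline than in young libraries, Il1r2 to Il1r1 is higher with MCC950 than with saline, and MCC950 replicate 8 stands alone at -3.80 in the panel of Il1rn to Il1b.

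Levels of the ligands followed macrophage markers from library to library. After the group mean was taken off, the correlation with the macrophage and myeloid marker score over the 21 libraries was 0.79 for Il18, 0.78 for Il1rn, 0.73 for Il1b and 0.72 for Il1a. These are descriptions, and the points share library, depth and cell make-up. With this score as a term in edgeR the log2 fold change with age was 0.99 for Il1a (adjusted p = 0.0284) and 0.60 for Il18 (adjusted p = 0.0338), both still past the threshold, and 0.60 for Il1rn (adjusted p = 0.135), which was not. With the collecting duct score instead, Il1a kept its call (1.59, adjusted p = 0.0333, edgeR), while Il18 (0.77, adjusted p = 0.0761) and Il1rn (1.09, adjusted p = 0.149) did not. In that fit 1390 of all 16377 genes tested passed with age, against 4034 without a score. Fewer cells of a type and less RNA per cell cannot be told apart in such bulk libraries. Il1b also ran against the proximal tubule score, with a correlation of -0.81. So did Il1a at -0.65, Il18 at -0.63 and Il1rn at -0.63. With the proximal tubule score as a term the log2 difference of Il1b was 0.54 with age (adjusted p = 0.0334, edgeR). With MCC950 it was 1.21 (adjusted p = 0.0127, edgeR), against 0.19 without the score (adjusted p = 0.665, edgeR), so Il1b then passed in both comparisons. Since 8 of 10 proximal tubule markers were themselves higher with MCC950, this score and the treatment cannot be fully separated. That fit called 4873 of all 16377 genes tested with age and 676 with MCC950, against 4034 and 2753 without a score.

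Il1r1 followed the collecting duct instead. Its correlation with the collecting duct score was 0.88, the highest of any of the 10 genes with any marker score, against -0.45 with the macrophage and myeloid score. Of the 10 collecting duct markers, 6 were lower with age at an adjusted p under 0.05 (edgeR), against 12.4% of all genes tested. With MCC950 0 of the 10 were lower, against 4.86% of all genes tested. An unadjusted p under 0.05 with MCC950 was seen in 3 of 10, close to the 31.6% of all genes tested. The summed level of these markers was 632 to 1372 CPM in young, 429 to 727 in saline and 303 to 697 in MCC950 libraries, and none of the markers was at 0 over a group. With the collecting duct score as a term, which was added after these values were seen, the log2 difference of Il1r1 was -0.29 with age (adjusted p = 0.0856, edgeR) and -0.21 with MCC950 (adjusted p = 0.0589, edgeR), and neither passed. Because Il1r1 followed this score in the same libraries, the smaller differences are no independent test. Over all 16377 genes tested this fit called 1390 with age and 4667 with MCC950, against 4034 and 2753 without a score. With the proximal tubule score the difference of Il1r1 with MCC950 was -0.44 and did not pass either (adjusted p = 0.209, edgeR). That fit called 676 of all 16377 genes tested with MCC950, against 2753 without a score. With the macrophage and myeloid score Il1r1 stayed past the threshold in both comparisons, at -0.53 (adjusted p = 0.0220, edgeR) and -0.49 (adjusted p = 0.0170, edgeR). Il1rap followed the podocyte and endothelial scores, with correlations of 0.67 and 0.61.

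**Figure D4:**
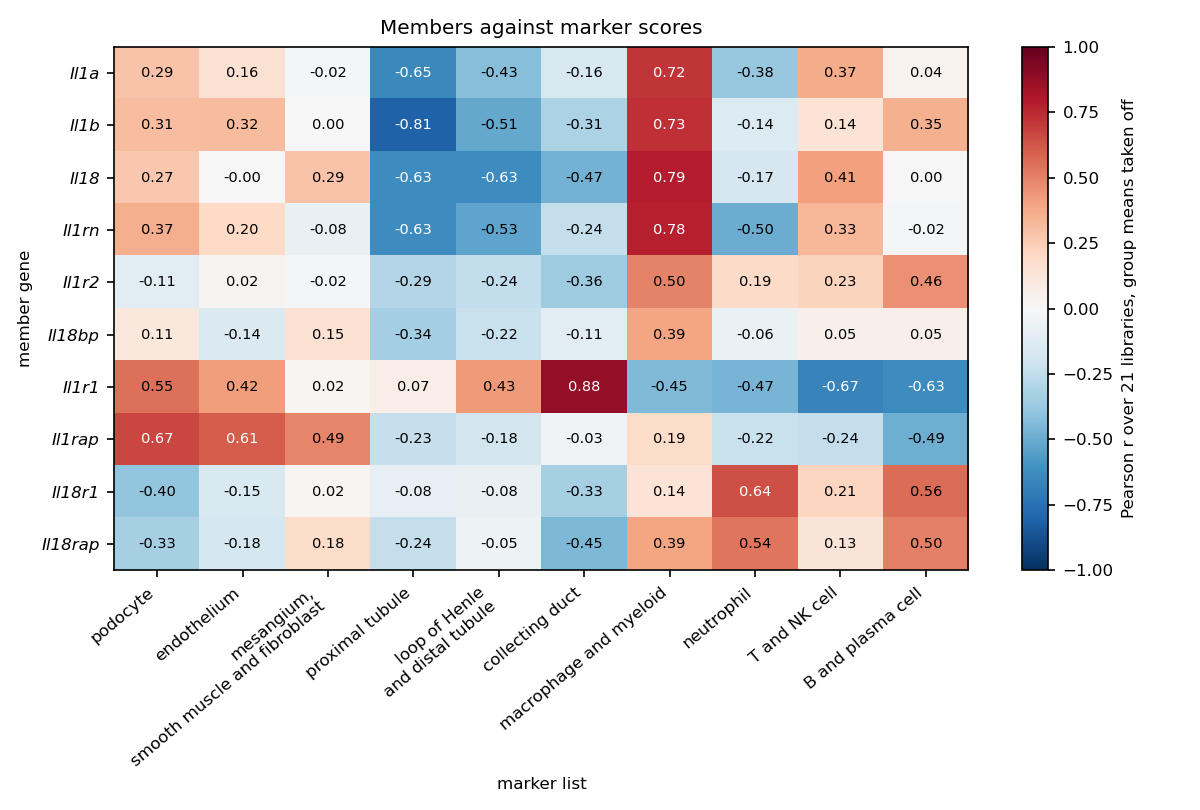
Pearson correlation over 21 libraries, with group means taken off, between each of the 10 genes (rows) and the mean log2 CPM of each marker list (columns), written in each cell and coloured from blue at -1 to red at 1. Il1a, Il1b, Il18 and Il1rn are between 0.72 and 0.79 in the macrophage and myeloid column, and Il1r1 is at 0.88 in the collecting duct column.

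The podocyte score could not be separated from age. With it as a term in edgeR 0 of all 16377 genes tested passed with age, and so 0 of the 10 genes did. Of the 10, 3 had an unadjusted p under 0.05. The log2 fold changes of Il1a, Il18 and Il1rn in that fit were 2.40, 1.72 and 2.58 while that of Il1r1 was -0.01. The interleukin-18 receptor chains were related to neutrophil markers, with correlations of 0.64 for Il18r1 and 0.54 for Il18rap. Their correlations with the B and plasma cell score were close to these, at 0.56 and 0.50. Neutrophil markers were sparse: 5 of 10 passed the filter on low counts, and 1 of these 5 was higher with age, against 12.2% of all genes tested. The summed level of the neutrophil markers was 8.56 to 17.3 CPM in young, 19.98 to 26.5 in saline and 11.7 to 32.7 in MCC950 libraries. Camp, Mpo and Elane were at 0 in all young libraries, Mpo and Elane in all saline libraries and Ly6g in all MCC950 libraries. The part of neutrophils in these values was not tested.

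Among the members themselves the closest pairs were Il1a with Il1rn and Il18r1 with Il18rap, with correlations of 0.81 and 0.80 over the 21 libraries, and Il1a with Il1b at 0.67. Il1r1 had a negative correlation with Il18rap, at -0.54. Of 12262 other genes, those most like Il1b were Nlrp3 at 0.97, which encodes the inflammasome sensor itself, Ptger4 at 0.97, a prostaglandin E2 receptor, and Cd14 at 0.97, a co-receptor for lipopolysaccharide. Il1r1 was most like Atp6v0d2 at 0.91, a proton pump subunit of intercalated cells that is in the collecting duct list, Oxgr1 at 0.90, a receptor for 2-oxoglutarate, and Armcx4 at 0.90. Il1a was most like Camk1 (0.89), Cd38 (0.87) and Pmp22 (0.87), and Il1rn most like Incenp (0.90), Nab2 (0.88) and Lgals9 (0.88). Il18 was most like Atp8a1 (0.89), Mmp25 (0.88) and Pilra (0.88), and Il18bp most like Cd5l (0.78), a macrophage protein, Slc40a1 (0.78), the iron exporter, and Rnf34 (0.71). Il1rap was most like Sema3g (0.90), Tspan2 (0.83) and Tirap (0.79), and Il1r2 most like Pisd-ps1 (0.81), Cc2d1b (0.80) and Mtmr14 (0.80). Il18r1 was most like Srrm1 (0.82), Il18rap (0.80) and Phf1 (0.80), and Il18rap most like Ppcdc (0.83), Ptbp2 (0.82) and Txndc16 (0.82).

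The machinery that cuts and releases the ligands had 12 genes, all tested, of which 3 rose and 0 fell with age. That share, 25% of the genes tested, was close to the 24.6% of all genes tested. The 3 were Aim2, a DNA sensor that forms an inflammasome, with a log2 fold change of 0.78 (SE 0.27, adjusted p = 0.0389, edgeR), Pycard, the inflammasome adaptor, with 0.40 (SE 0.12, adjusted p = 0.0176, edgeR), and Casp8, a caspase that can also cut interleukin-1 beta, with 0.36 (SE 0.12, adjusted p = 0.0288, edgeR). Each of these calls was lost without any one of young replicates 2 and 3 or saline replicates 2, 3 and 7. Other single libraries also ended them: young replicate 4 for Pycard, young replicate 1 and saline replicate 4 for Aim2, and young replicates 1 and 5 and saline replicate 4 for Casp8. Adjusted p-values then reached 0.0775 for Pycard, 0.101 for Aim2 and 0.110 for Casp8. With the macrophage and myeloid score as a term their log2 differences were 0.19, 0.24 and 0.12 and did not pass. Pycard went from 9.98, 11.6 and 12.8 CPM in young (lowest, median and highest) to 11.6, 15.4 and 18.2 CPM in saline libraries. The median log2 fold change of the 12 genes was 0.49 beside 0.02 for all genes tested. Nlrp3 itself, the target of MCC950, had a log2 difference of 0.58 with age (SE 0.32, adjusted p = 0.193, edgeR) and 0.36 with MCC950 (SE 0.29, adjusted p = 0.425, edgeR). With MCC950 1 of the 12 genes passed, 8.33% against 16.8% of all genes tested. It was Ninj1, which encodes a protein that ruptures the plasma membrane in pyroptosis. Ninj1 rose by 0.46 (SE 0.12, adjusted p = 0.0143, edgeR), from 33.3, 38.6 and 39.8 CPM to 43.2, 47.8 and 83.5 CPM without overlap. That separation was seen in 1.15% of all genes tested with MCC950 higher. Without saline replicate 4 the edgeR adjusted p of Ninj1 was 0.0529. With the proximal tubule score as a term its log2 difference was 0.29 (adjusted p = 0.292, edgeR). In that fit 676 of all 16377 genes tested passed with MCC950.

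Of the 19 genes of signalling below the receptors, all tested, 2 rose and 1 fell with age, 15.8% against 24.6% of all genes tested. Irak3, an IRAK family member that restrains the pathway, rose by 0.90 (SE 0.23, adjusted p = 0.00789, edgeR), and Rela, an NF-kappaB subunit, by 0.31 (SE 0.11, adjusted p = 0.0466, edgeR). Tollip, an inhibitor that binds IRAK1, fell by 0.18 on the log2 scale (SE 0.05, adjusted p = 0.0177, edgeR). Of these, Irak3 and Tollip kept their calls whichever library was left out. The call of Tollip was lost at equal depth. That of Rela was lost without any one of the 6 young libraries, of saline replicates 1, 2, 3, 4, 6 and 7 or of MCC950 replicates 3 and 8 (adjusted p up to 0.142), and in DESeq2 (adjusted p = 0.0654). Under the macrophage and myeloid score the difference of Irak3 was 0.44 (adjusted p = 0.0792, edgeR). With MCC950 2 rose and 2 fell, 21.1% against 16.8% of all genes tested. Sigirr, an inhibitory receptor of the family, had a log2 fold change of 0.58 (SE 0.16, adjusted p = 0.0182, edgeR) and the kinase Chuk 0.31 (SE 0.10, adjusted p = 0.0371, edgeR). Ikbkg, the regulatory subunit of the same kinase complex, had -0.19 (SE 0.06, adjusted p = 0.0419, edgeR) and Tab3, an adaptor of the TAK1 kinase, -0.22 (SE 0.07, adjusted p = 0.0310, edgeR). The call of Sigirr was lost without saline replicate 4 (adjusted p = 0.0505). Chuk lost its call without any one of saline replicates 2 to 7 or MCC950 replicates 1, 3, 4 and 5, Tab3 without saline replicates 4 to 7 or MCC950 replicates 1 and 5, and Ikbkg without saline replicate 5 or MCC950 replicates 1, 3, 4, 5, 7 and 8, with adjusted p-values up to 0.0946, 0.0638 and 0.0898.

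Of 10 other ligands and receptors of the family only 4 passed the filter on low counts. Of these 4, 1 was called with age, 25% against 24.6% of all genes tested, and 1 with MCC950, 25% against 16.8%. Il1rl1, the interleukin-33 receptor, rose with age by 0.87 (SE 0.28, adjusted p = 0.0257, edgeR), a call that was lost without young replicate 1 or 3 or saline replicate 2 or 3 (adjusted p up to 0.0721) and with the macrophage and myeloid score as a term (0.31, adjusted p = 0.342). With MCC950 its log2 difference was -0.60 (SE 0.25, adjusted p = 0.0978, edgeR). Il33, its ligand, fell with MCC950 by 1.03 on the log2 scale (SE 0.33, adjusted p = 0.0362, edgeR), at a low level of 0.695, 1.10 and 1.63 CPM in saline and 0.127, 0.571 and 0.792 CPM in MCC950 libraries (lowest, median and highest). The call of Il33 was lost without any one of saline replicates 3, 5, 6 and 7 or MCC950 replicates 2, 3 and 4, with adjusted p-values up to 0.0746 (edgeR).

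Of 20 genes known to be induced by interleukin-1, 14 were tested, and 3 rose and 0 fell with age. This was 21.4% of those tested, below the 24.6% of all genes tested. Mmp9, a matrix metalloproteinase, rose by 2.43 (SE 0.46, adjusted p = 0.00068, edgeR), from 0.112, 0.597 and 0.802 CPM in young to 1.30, 2.94 and 5.47 CPM in saline libraries, without overlap. Vcam1, an adhesion molecule for leukocytes, rose by 1.25 (SE 0.37, adjusted p = 0.0159, edgeR), and Lcn2, which encodes the tubular injury protein NGAL, by 1.09 (SE 0.23, adjusted p = 0.00203, edgeR). Lcn2 was the 1 gene of this list that passed in both comparisons: with MCC950 it fell by 1.02 on the log2 scale (SE 0.21, adjusted p = 0.00466, edgeR). Its levels were 1.88, 3.47 and 4.15 CPM in young, 4.26, 6.75 and 9.40 CPM in saline and 1.38, 3.31 and 4.77 CPM in MCC950 libraries (lowest, median and highest). Cxcl1, a neutrophil chemokine, and Sod2, the mitochondrial superoxide dismutase, instead rose with MCC950, by 0.73 (SE 0.21, adjusted p = 0.0248, edgeR) and 0.49 (SE 0.10, adjusted p = 0.00587, edgeR). Together with Lcn2, 21.4% of the genes tested in this list were called with MCC950, against 16.8% of all genes tested. Mmp9, Vcam1, Lcn2 and Sod2 kept their calls whichever library was left out, and Cxcl1 lost its call without saline replicate 4 or 7 (adjusted p of 0.0620 and 0.0558). With the macrophage and myeloid score as a term Vcam1 did not pass with age (0.48, adjusted p = 0.144, edgeR). Under the proximal tubule score the edgeR differences with MCC950 were -0.91 for Lcn2 (adjusted p = 0.0738), 0.97 for Cxcl1 (adjusted p = 0.0648) and 0.11 for Sod2 (adjusted p = 0.527). None of these passed, although the difference of Cxcl1 was larger than without the score. In that fit 676 of all 16377 genes tested passed with MCC950, against 2753 without a score.

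Of 12 genes that act with interleukin-18 or are induced by it, 11 were tested, and 2 rose with age, 18.2% against 24.6% of all genes tested. These were Prf1, the perforin of cytotoxic lymphocytes, with a log2 fold change of 1.62 (SE 0.39, adjusted p = 0.00487, edgeR), and Tbx21, the transcription factor of type 1 T cells and NK cells, with 1.60 (SE 0.41, adjusted p = 0.00691, edgeR). Both kept their calls whichever library was left out, and Tbx21 missed the threshold with the macrophage and myeloid score as a term (1.25, adjusted p = 0.0517, edgeR). Prf1 was counted only 2 to 8 times per young library and 11 to 67 times per saline library. Scaled for depth its ranges overlapped, at 0.0836 to 0.337 CPM in young and 0.214 to 0.842 CPM in saline libraries. Of 11 T and NK cell markers tested, 5 were higher with age, against 12.2% of all genes tested. The summed level of the T and NK cell markers was 8.19 to 20.1 CPM in young and 19.1 to 30.5 in saline libraries. With MCC950 0 of the 11 interleukin-18 genes tested passed in edgeR, against 16.8% of all genes tested. An unadjusted p under 0.05 was seen in 0 of the 11, against 31.6% of all genes tested. Ifng, which interleukin-18 induces, did not pass the filter on low counts and was not tested. It was counted 0 to 4 times per young, 4 to 17 times per saline and 2 to 14 times per MCC950 library. Scaled for depth its levels overlapped, at 0 to 0.225 CPM in young, 0.0758 to 0.331 in saline and 0.0394 to 0.181 in MCC950 libraries.

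**Figure D5:**
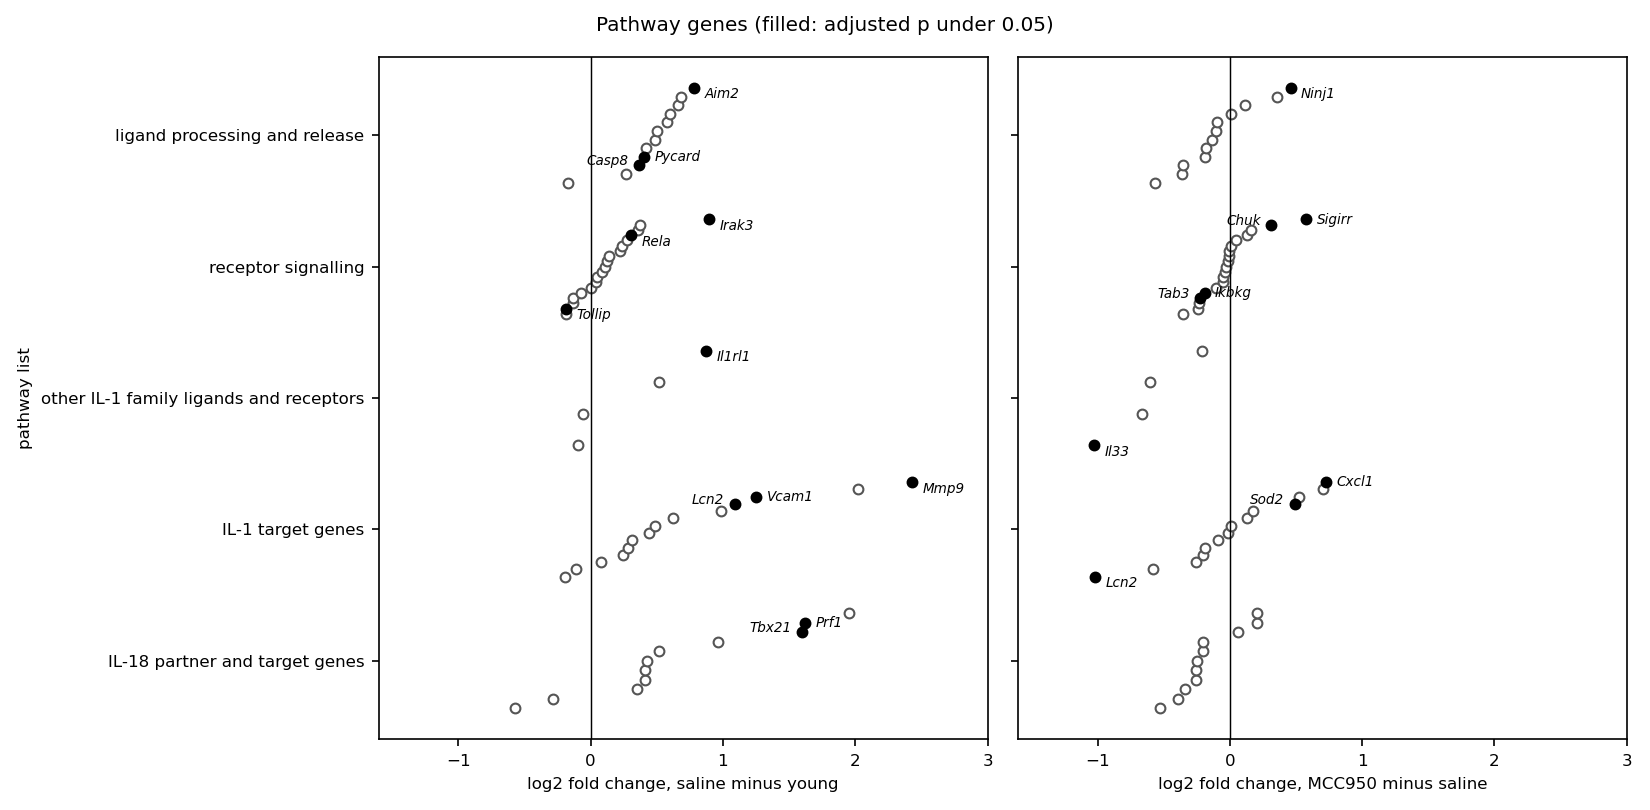
Log2 fold change (x axis) of each tested gene of the 5 pathway lists (y axis) for saline minus young on the left and MCC950 minus saline on the right, with filled and named points at an edgeR adjusted p under 0.05. Over the 5 lists 20% of the genes tested passed with age and 15% with MCC950, against 24.6% and 16.8% of all genes. With age 11 filled points lie to the right of 0 and 1, Tollip, to the left, and with MCC950 5 lie to the right and 4 to the left.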

How the data were processed

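Podocyte fractions of 6 young, 7 saline and 8 MCC950 mice were each sequenced as one TruSeq library. The authors used Trim Galore for trimming, Bowtie2 for alignment (mm10) and featureCounts for the read counts of each gene. Annotation release and strand setting are not given in the sources used here. The deposited tables hold whole read counts for 27179 genes, unnormalized, and a normalized table was not used. Gene names came from RefSeq GRCm38.p6 (25275 gene numbers) and exon lengths from GENCODE on GRCm38.

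Groups followed the labels, and all 6 young libraries were used although the study's text gives a smaller number. The members and lists were chosen with earlier results of these data known. The test was that of edgeR 4.0.16, run under R 4.3.3 (TMM, filterByExpr, quasi-likelihood test, all 3 groups in one fit) on 16377 genes, with Benjamini-Hochberg adjustment over them and a threshold of 0.05. Ratios used count + 0.5 and exact two-sided permutation tests, whose smallest p was 0.00117 for 7 against 6 and 0.000311 for 8 against 7 libraries. Likeness was the Pearson correlation of log2 CPM (prior count 2) with group means taken off, among genes whose average log2 CPM was 1 or more, and the 3 most alike were named. Pathway genes were named where they passed the threshold, at most the 3 largest by list, direction and comparison, with Nlrp3, Ifng and the marker genes at 0 named after their values were seen. DESeq2 1.42.0, other filters and scalings, equal depth (5804891 counts outside mitochondrial genes), marker scores as terms and each library left out were alternatives. The fits were tested on simulated data. No 2 libraries of a group were duplicates (lowest chi-square per degree of freedom 16.7). Depth limits the precision of members with few counts, and p-values weigh a difference between groups against the spread between mice. Python 3.11.15, pandas 2.3.3, numpy 2.4.6, scipy 1.17.1 and matplotlib 3.10.9 were used.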

Additional observations from a re-analysis of the deposited data

Results flagged for a closer look

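The log2 ratio of Il1rn to Il1b in MCC950 replicate 8 was -3.80, the highest of the 8 libraries of its group, while the nearest other library was at -5.13. The gap was 0.703 of the range of the group, above Dixon's critical value of 0.526 for 8 samples. The same library had the highest Il1rn level of the group, 28.5 CPM, and 398 CPM of Il1b, within the range of the other libraries. Dixon's test was applied to 45 groups of values, of which chance alone would mark about 1 in 20, and this was the 1 that it marked.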

How the results depend on the processing

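The 4 member calls with age held whichever library was left out, though not with every covariate, and the 1 call with MCC950 (Il1r1) was lost without any one of 13 of the 21 libraries and in 4 of 13 other settings. With age the number of members called was 4 to 6 over left-out libraries, 0 with the podocyte score as a term (edgeR, 3 at an unadjusted p under 0.05) and 1 with the collecting duct score, and pathway genes numbered 7 to 16 over left-out libraries, 7 at an unadjusted p under 0.05 with over 2-fold change, 19 with a replicate block, 0 with the podocyte score (8 at an unadjusted p under 0.05) and 2 with the collecting duct score. With the macrophage and myeloid score 9 pathway genes passed with age, 4 higher and 5 lower, against 11 higher and 1 lower without it. Of all 16377 genes tested, 4034 passed with age without a score and 3456 with the macrophage and myeloid score. The collecting duct score left 1390 and the podocyte score 0. With MCC950 the members called were 0 to 2 over left-out libraries, 0 at the unadjusted 2-fold threshold, with no filter or with the collecting duct score (edgeR, 2 at an unadjusted p under 0.05 in each; 1 called by DESeq2), and 2 with a replicate block or the podocyte score. Pathway genes numbered 4 to 10 over left-out libraries, 2 at the unadjusted 2-fold threshold and 18 with the collecting duct score. With that score 4667 of all 16377 genes tested passed with MCC950, against 2753 without a score. The replicate block gave 3285 and the podocyte score 3678 with MCC950, and the block gave 4107 with age. Ratios called with age were 0 to 3 over left-out libraries, 2 at equal depth and 0 with a replicate block, and with MCC950 0 to 2 over left-out libraries and 0 with a replicate block. The block test of ratios flipped signs over the replicate numbers shared by the 2 groups compared. With so few pairs its smallest possible p could hardly pass the adjustment over 10 tests, so the counts of 0 with a block decide nothing.

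Signs turned with age under the podocyte score for Il1rap (0.42), Il18r1 (-0.21), Il18rap (-0.39) and Tbx21 (-0.0016). With MCC950 they turned for Il1a, Il18 and Il1rn under the macrophage and myeloid score (0.00404, 0.0152 and 0.105) and under the proximal tubule score (0.69, 0.39 and 0.74), as for Chuk (-0.0198) and Sigirr (-0.0685). Il18rap to Il18r1 with age was 0.0332 at equal depth, 0.00634 with a replicate block and -0.15 to 0.10 over left-out libraries, and with MCC950 -0.21 to 0.0183. Il18bp to Il18 with MCC950 was -0.16 to 0.0274. The causes were not tested.

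Replicate numbers are not stated to pair mice. Same-number correlations were -0.061 to 0.35 with age and -0.14 to 0.33 with MCC950, and were not compared with those of different numbers. With the block, edgeR called 6 members with age, Il1b (adjusted p = 0.0368) and Il18r1 (adjusted p = 0.0381) being added, and Il1a (-0.58, adjusted p = 0.0391) with MCC950. The same fit called 4107 of all 16377 genes tested with age and 3285 with MCC950, against 4034 and 2753 without a block. The exact test planned for genes under the filter was not run, since all 10 genes passed it. Counts of at most 66 in each young library limit Il1a, Il18 and Il1r2.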
